A study of Mus musculus with 6 samples.

Results

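This account covers 36 genes of DNA replication and nucleotide supply, among 19494 genes measured on arrays of regulatory T cells (Tregs) from colonic tumours of mice. They were taken by symbol from a fixed list of replication and nucleotide genes, and all 36 were measured, each by 1 probe set. All mice carried 2 reporters, Foxp3-RFP for Tregs and GPR15-GFP for the receptor, and had colorectal cancer induced by AOM/DSS (azoxymethane and dextran sulfate sodium). CD4-stained, RFP+ cells from the tumorous colonic lamina propria were divided by sorting into a GPR15-GFP+ and a GPR15-GFP- fraction, with 3 samples in each and the numbers 1, 5 and 6 in both. The labels used here give neither age nor sex, nor whether a number marks an animal or a pool. All p-values therefore measure the spread between these samples, which may be technical.

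Before a cell copies its DNA, the origin recognition complex, Cdc6 and Cdt1 load the MCM ring onto origins. Cdc45 and the GINS complex then turn the ring into the active helicase, primase and polymerase α start each strand, and polymerases δ and ε extend it on the PCNA clamp. Ribonucleotide reductase, thymidylate synthase and thymidine kinase supply the building blocks. Most of these genes are transcribed at the entry into S phase under E2F factors, and their messages are low in resting T cells, so the set is used as a readout of how much of a population is in cycle. Tregs in inflamed or tumour tissue are known to divide.

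Levels are log2 values after RMA, the authors' normalization, and a difference is always the mean of samples labelled GPR15+ minus that of samples labelled GPR15-. Median values of the 6 arrays lay between 6.49 and 6.64, and values spread least on the arrays numbered 1 (SD 1.63 in both fractions, against 1.74 to 1.87 on the others). With 3 arrays a fraction, their number limits precision. Gpr15 itself was lower on the arrays labelled GPR15+, by -0.65 ± 0.22 (SE), opposite to the labels. Whether the reporter allele keeps the sequence that this probe set reads is not known here, so the value may not bear on the sort. Each direction below rests on the labels alone. The T cell markers measured (8 of 10 listed) had a median level at the 99.1 percentile of all genes, and the Treg markers (4 of 5) at the 96.9 percentile. Il2ra, the IL-2 receptor chain CD25 and a core Treg marker, was dim, at the 20.0 percentile, and Foxp3 was not analysed here.

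The replication genes as a set differed little between the fractions. The median difference of the 36 genes was 0.04 against -0.06 for all genes, with 20 above 0 and 16 below. The medians within the numbers 1, 5 and 6 were 0.10, 0.07 and 0.16, each above the median of all genes in the same pair (-0.03, -0.08 and -0.06). Leaving out 1 array moved the set's median to between -0.04, when GPR15- replicate 1 was omitted, and 0.14, when GPR15+ replicate 1 was. With each array centred on its median, the median of the set was 0.11 against 0.01 for all genes, and with the trend of the difference on level removed it was 0.04 against -0.03. Of all genes 40.8% lay above 0 as deposited.

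No gene of the set passed limma's test after adjustment (Benjamini-Hochberg, all genes), and neither did any other gene (0% of 19494, smallest adjusted p 0.540). The adjusted p-values of the set ran from 0.773 to 0.995. At an unadjusted p under 0.05, limma found 2 of the 36, against 6.23% of all genes, and these were Prim2 above 0 and Gins1 below. With the replicate number as a block the count was 5 of 36, against 12.4% of all genes, and again 0 passed after adjustment (smallest adjusted p of the set from limma 0.269). The 3 values of each fraction did not overlap for Prim2, Mcm6 and Gins1, against 13.3% of all genes, and 14 genes had the same sign in all 3 numbers, against 37% of all genes. Each of these shares of the set is near that of all genes.

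The counts were larger, for all genes as for the set, in the settings that left out GPR15+ replicate 1 or gave it little weight. Without that array 7 of the 36 had an unadjusted p under 0.05, as did 22.3% of all genes, and 0 passed after adjustment. Without both arrays numbered 1 it was again 7, against 21.0% of all genes. With array weights from limma, which gave that array 0.191 and GPR15+ replicate 6 a weight of 6.56, 10 of the 36 had an unadjusted p under 0.05, against 33.5% of all genes. There 2174 genes passed after adjustment, and 7 of them were in the set. These were Prim2, Prim1, Mcm4 and Pole above 0 and Gins1, Mcm10 and Tk1 below (limma adjusted p from 0.0152 to 0.0474). The iteration for those weights stopped before it converged. Weights computed gene by gene, which gave that array 0.228, found 8 of the 36 at an unadjusted p under 0.05, against 22.3% of all genes. After adjustment they gave 2 genes in all and 0 of the set.

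**Figure D1:**
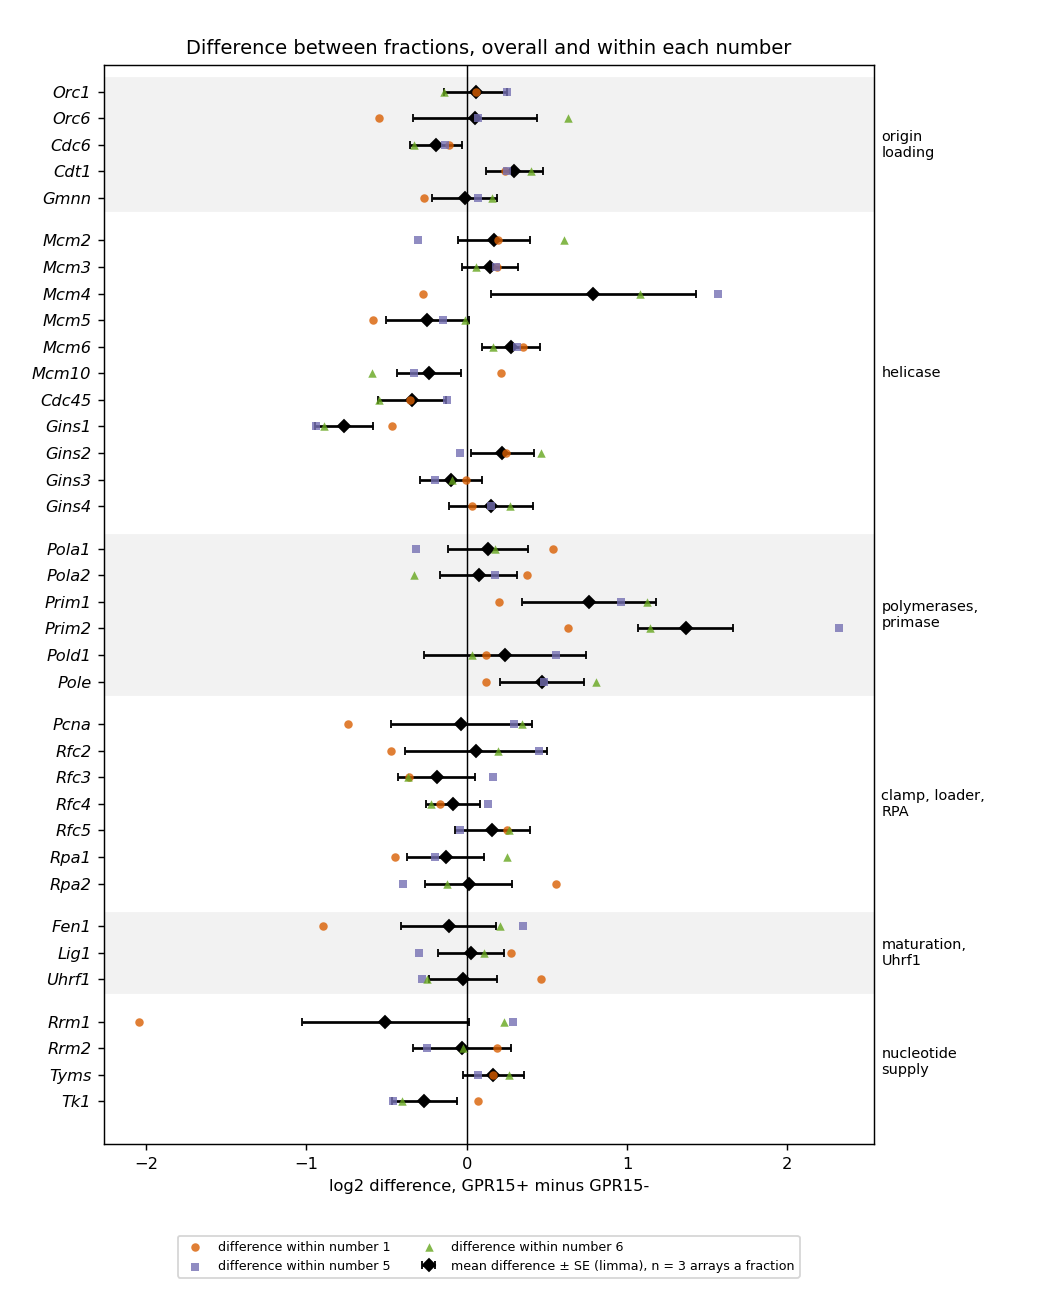
Log2 difference between samples labelled GPR15+ and GPR15- for the 36 genes, ordered by role: black diamonds with bars give the mean difference with limma's SE (3 arrays a fraction), and coloured points the difference within the numbers 1, 5 and 6. Prim2 lies farthest right (1.37) and Gins1 farthest left (-0.76), and the value of Rrm1 within number 1 (-2.04) stands apart from its other points.

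Transcripts of the factors that load the helicase at origins lay between -0.19 and 0.30, and none passed the test. Cdt1, which brings the MCM ring to origins, differed by 0.30 ± 0.18 (SE), and it was above 0 within each number, at 0.24, 0.25 and 0.40. Gmnn, which encodes geminin, the inhibitor of Cdt1, differed by -0.01 ± 0.20 (SE). Cdc6, the loading ATPase, differed by -0.19 ± 0.16 (SE) and lay below 0 in each number, at -0.11, -0.14 and -0.33. Of the origin recognition subunits, Orc1 differed by 0.06 ± 0.20 (SE) and Orc6 by 0.05 ± 0.39 (SE). For Orc6 the numbers did not share a sign: the difference was -0.54 within number 1 and 0.63 within number 6.

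The subunits of the MCM ring lay on both sides of 0. Mcm4 had levels of 5.36, 6.18 and 6.18 on the arrays labelled GPR15- and of 5.08, 7.75 and 7.26 on those labelled GPR15+, in the order 1, 5 and 6. The GPR15+ values of numbers 5 and 6 lay above all others, and that of number 1 was the lowest of the 6. The difference was 0.79 ± 0.64 (SE), or 1.73-fold, with an adjusted p of 0.811 from limma. Without GPR15+ replicate 1 it was 1.60, with an adjusted p of 0.133 from limma. Leaving out 1 of the other arrays gave 0.27 (GPR15+ replicate 5) to 0.93. Mcm2 lay at 7.75, 8.34 and 7.64 in GPR15- and at 7.95, 8.04 and 8.25 in GPR15+. Those groups overlap, and the difference was 0.17 ± 0.22 (SE), from 0.03 to 0.39 with 1 array left out. Mcm6 was above 0 in each number (0.35, 0.31 and 0.16; mean 0.28 ± 0.18, SE), Mcm3 as well (0.14 ± 0.18, SE), and Mcm5 below 0 in each (-0.58, -0.15 and -0.01; mean -0.25 ± 0.26, SE). Ring subunits act in equal numbers in the assembled helicase, and here the differences of these 5 genes ran from -0.25 to 0.79, with none passing the test.

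Among the factors that activate the ring, Gins1 had the lowest difference of the set. This GINS subunit lay at 4.79, 5.17 and 4.89 on the arrays labelled GPR15- and at 4.32, 4.23 and 4.01 on those labelled GPR15+. All GPR15+ values were below all GPR15- values, and the difference was below 0 within each number, at -0.47, -0.94 and -0.89. It came to -0.76 ± 0.18 (SE), or 1.70-fold lower, with an unadjusted p of 0.00298 and an adjusted p of 0.773 from limma (0.269 with the replicate block). Leaving out 1 array gave -0.85 to -0.66. Gins1 was dim, at the 10.5 percentile of mean level, and its difference ranked 53rd from the bottom of 19494.

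The other GINS subunits did not share that value. Gins2 differed by 0.22 ± 0.20 (SE, from 0.08 to 0.38 with 1 array left out), Gins3 by -0.10 ± 0.19 (SE) and Gins4 by 0.15 ± 0.26 (SE), so the complex's 4 genes had 2 values on each side of 0. Cdc45, the partner of GINS in the active helicase, lay at 6.46, 5.98 and 6.64 in GPR15- and at 6.10, 5.86 and 6.10 in GPR15+. It was below 0 within each number, although the groups overlap, and differed by -0.34 ± 0.21 (SE), from -0.53 to -0.20 with 1 array left out. Mcm10, which helps to start the assembled helicase, differed by -0.23 ± 0.20 (SE), with 0.22 within number 1 and -0.33 and -0.59 within the other two.

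**Figure D2:**
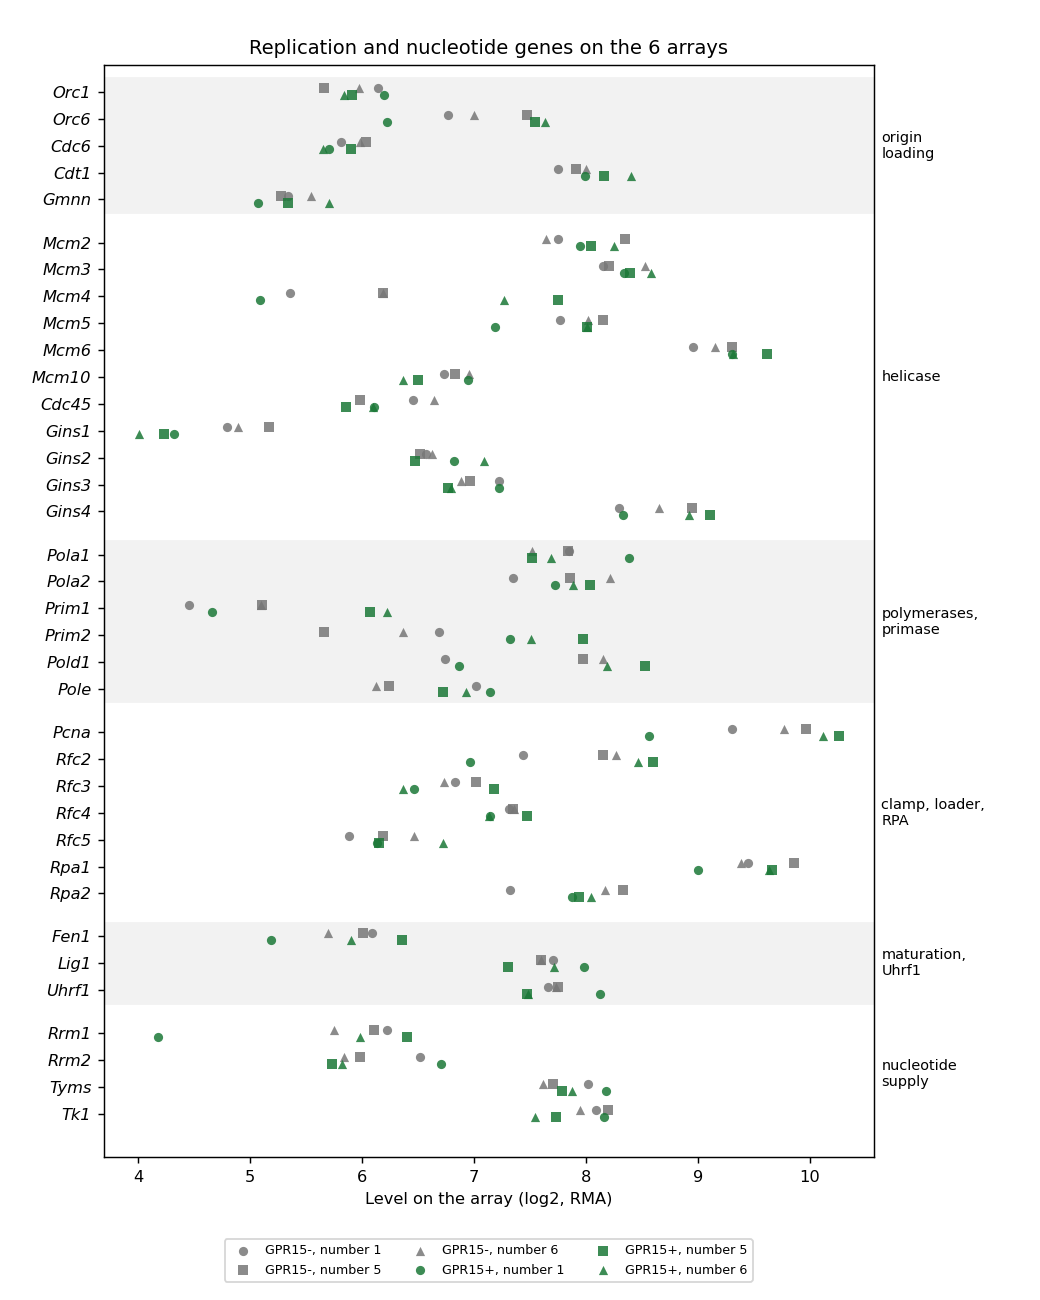
Level of each of the 36 genes on the 6 arrays (log2, RMA), with grey symbols for GPR15-, green symbols for GPR15+ and the symbol shape for the number. Prim2 and Gins1 show separate groups, and those of Mcm6 barely part (highest GPR15- value 9.30, lowest GPR15+ value 9.31). For Mcm4, Prim1, Pold1, Pcna and Rfc2 the circles of number 1 lie to the left of the squares and triangles of numbers 5 and 6 in both fractions.

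Polymerase and primase genes all lay above 0 as deposited, against 40.8% of all genes, and no other role group did so. The median of the 6 was 0.35, and it was 0.29, 0.52 and 0.49 within the numbers 1, 5 and 6. The count of genes above 0 fell to 4 of 6 when GPR15- replicate 1, GPR15+ replicate 5 or both arrays numbered 1 were left out or with weights gene by gene. It fell to 5 of 6 without GPR15+ replicate 1 or with array weights. The median stayed between 0.35 and 0.55 with 1 array left out, and was 0.42 with arrays centred and 0.36 with the trend removed. It was 0.24 over the 5 genes left by the filter on dim genes. None of the 6 passed the test after adjustment.

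Prim2, the large primase subunit, had the largest difference of the set. It lay at 6.68, 5.66 and 6.37 on the arrays labelled GPR15- and at 7.32, 7.98 and 7.51 on those labelled GPR15+. The groups do not overlap, and the difference within the numbers was 0.63, 2.32 and 1.14. The mean difference of 1.37 ± 0.30 (SE), or 2.58-fold, ranked 17th of 19494 genes from the top, with an unadjusted p of 0.00190 and an adjusted p of 0.773 from limma (0.269 with the replicate block). Leaving out 1 array gave 1.08 to 1.59, and leaving out both arrays numbered 5 gave 0.89.

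Prim1, the catalytic primase subunit, also lay above 0 within each number, at 0.20, 0.96 and 1.13. Its levels were 4.46, 5.11 and 5.09 in GPR15- and 4.66, 6.07 and 6.22 in GPR15+. The 2 high arrays were GPR15+ of numbers 5 and 6, and the groups overlap through number 1. The difference was 0.76 ± 0.42 (SE), or 1.70-fold, with an unadjusted p of 0.105 from limma, 0.00799 with the replicate block and 9.02e-04 without GPR15+ replicate 1 (adjusted p = 0.773, 0.325 and 0.133). Leaving out 1 array gave 0.48 (GPR15+ replicate 6) to 1.26 (GPR15+ replicate 1). The gene was dim, at the 21.9 percentile of level.

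The polymerases themselves differed less. Pole, the catalytic subunit of polymerase ε, differed by 0.47 ± 0.26 (SE), or 1.38-fold, with 0.12, 0.48 and 0.81 within the numbers. Leaving out 1 array gave 0.30 (GPR15- replicate 6) to 0.75 (GPR15- replicate 1). Its unadjusted p from limma was 0.114, and 0.0353 with the replicate block (adjusted p = 0.386). Pold1, its counterpart in polymerase δ, differed by 0.24 ± 0.50 (SE). Pola1 and Pola2, which form polymerase α with the primase pair, differed by 0.13 ± 0.25 (SE) and 0.07 ± 0.24 (SE), and each lay below 0 in 1 of the 3 numbers. The genes of this 4-subunit enzyme thus gave values from 0.07 to 1.37.

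The clamp and its loader showed no shared direction. Pcna, the sliding clamp, lay at 9.31, 9.96 and 9.77 in GPR15- and at 8.57, 10.26 and 10.11 in GPR15+. The GPR15+ array of number 1 was the lowest of the 6 and those of numbers 5 and 6 the highest, so the mean difference was -0.03 ± 0.44 (SE). Its sign turned with each array centred on its median (0.04), and without GPR15+ replicate 1 the difference was 0.51. The clamp loader genes Rfc2, Rfc3, Rfc4 and Rfc5 differed by 0.06, -0.19, -0.09 and 0.16. Rpa1 and Rpa2, which coat single-stranded DNA, differed by -0.13 and 0.01. None of these 7 genes had the same sign in all 3 numbers.

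The genes that finish the lagging strand, the flap nuclease Fen1 (-0.11 ± 0.30, SE) and the DNA ligase Lig1 (0.03 ± 0.21, SE), were near 0. So was Uhrf1 (-0.02 ± 0.21, SE), which directs methylation to newly copied DNA. Fen1 lay at -0.90 within number 1 and at 0.35 and 0.21 within numbers 5 and 6.

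Of the nucleotide supply genes, Rrm1 rested on 1 array. The large subunit of ribonucleotide reductase lay at 6.22, 6.11 and 5.75 in GPR15- and at 4.18, 6.40 and 5.98 in GPR15+. The GPR15+ array of number 1 lay far below the other 5, which span 5.75 to 6.40. The difference was -0.51 ± 0.52 (SE) with it and 0.16 without it, and -2.04, 0.29 and 0.23 within the numbers. Rrm2, the small subunit that limits the enzyme in S phase, lay at 6.52, 5.98 and 5.84 in GPR15- and at 6.71, 5.73 and 5.82 in GPR15+. There the arrays numbered 1 were the highest of both fractions, and the difference was -0.03 ± 0.30 (SE). Tyms, thymidylate synthase, lay at 8.02, 7.71 and 7.61 against 8.18, 7.78 and 7.88. It was above 0 within each number by 0.16, 0.07 and 0.26, in groups that overlap, with a mean of 0.17 ± 0.19 (SE). Tk1, thymidine kinase, differed by -0.26 ± 0.20 (SE), with 0.07, -0.46 and -0.40 within the numbers.

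**Figure D3:**
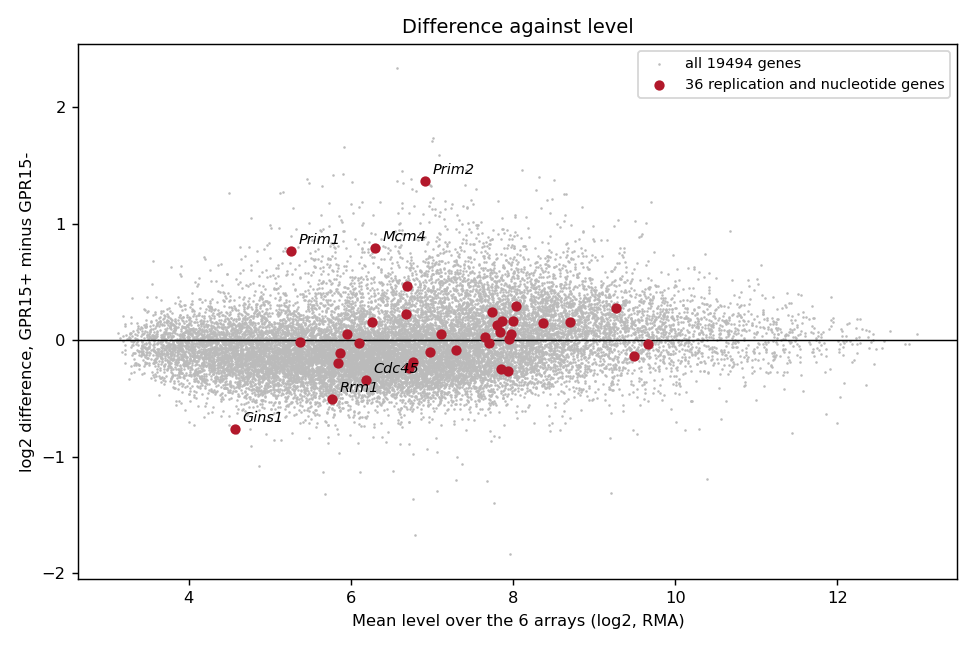
Difference between samples labelled GPR15+ and GPR15- against mean level over the 6 arrays, in log2 units, for all 19494 genes (grey) and the 36 replication and nucleotide genes (red). Most red points lie within the grey cloud, with Prim2 (1.37) near its upper edge and Gins1 (-0.76) near its lower edge among dim genes.

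Most replication genes varied more between the numbers than between the fractions. The mean of the arrays numbered 5 and 6 minus that of the arrays numbered 1 was larger in size than the difference between fractions for 27 of the 36 genes, against 63.6% of all genes, and its median size was 0.355 against 0.163 for the fractions. Most genes showed the same: over all genes these sizes were 0.276 and 0.185. This comparison was chosen after the values were seen, and the numbers are not groups of the study. Pold1 showed it most clearly. It lay at 6.74 and 6.87 on the arrays numbered 1 (GPR15- and GPR15+), at 7.97 and 8.53 on those numbered 5 and at 8.15 and 8.19 on those numbered 6. Both arrays numbered 1 were below the other 4, by 1.41 on average.

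In a limma F test of the number, with the fraction in the same fit, Pold1 was the only gene of the set that passed over all genes (adjusted p = 0.0334), against 1.82% of all genes. At an unadjusted p under 0.05 that test found 10 of the 36, against 19.8% of all genes. Among those 10, Mcm4 (1.62), Rfc2 (1.17), Pcna (1.09), Prim1 (1.07), Orc6 (0.92), Gins4 (0.59), Mcm5 (0.57) and Rfc5 (0.37) were also lower on average on the arrays numbered 1, and Rrm2 was higher there (-0.77). The mean level of all 36 genes was 7.05 and 6.99 on the arrays numbered 1 and ran from 7.18 to 7.35 on the other 4, while within each fraction the median of all genes was highest on the array numbered 1 (6.65 against 6.62 and 6.62 in GPR15-, 6.62 against 6.53 and 6.54 in GPR15+). The spread of values on the arrays, given above, moves with the number too, and its part in these values was not tested.

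**Figure D4:**
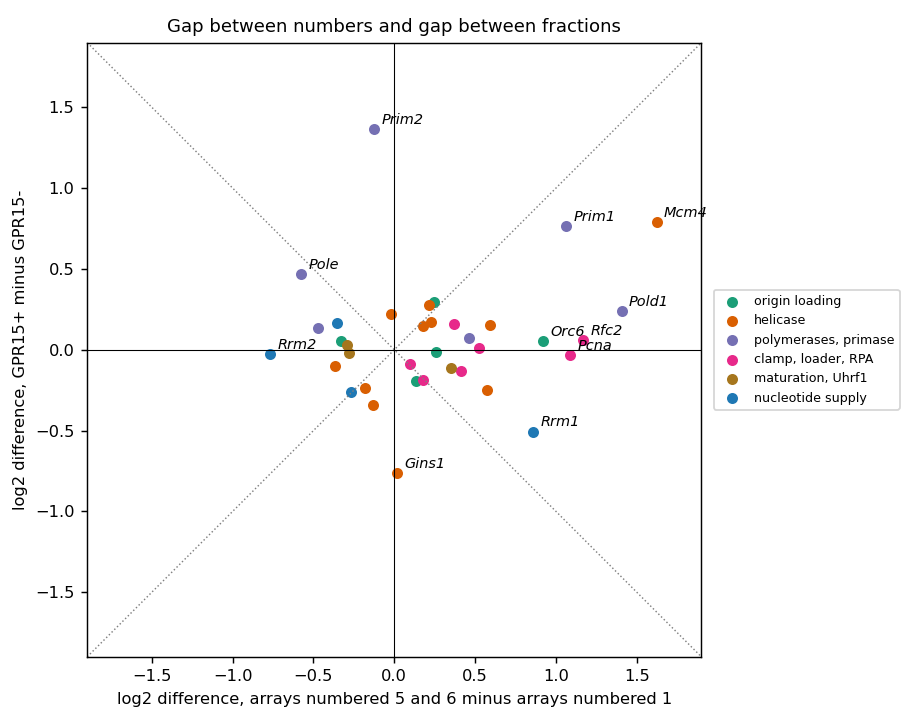
Difference between fractions (vertical axis) against the difference of the arrays numbered 5 and 6 minus those numbered 1 (horizontal axis) for the 36 genes in log2 units, coloured by role, with dotted lines where both are equal in size. Prim2 and Gins1 lie near the vertical axis, and Mcm4, Pold1, Rfc2, Pcna, Orc6 and Rrm1 lie to the right and nearer the horizontal one.

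Further genes of the pathway, from lists chosen with earlier results of these data known, lay more often above 0 than all genes did. Of 87 other measured genes of replication, nucleotide synthesis and entry into S phase (91 listed), 55 lay above 0 and 32 below, against 40.8% of all genes above 0, with a median of 0.08. At an unadjusted p under 0.05 limma found 3 higher, against 2.79% of all genes, and 0 lower, and 0 passed after adjustment. With the replicate block 14 had an unadjusted p under 0.05 in limma's test, 13 higher and 1 lower. Of all 19494 genes 12.4% did, 1197 higher and 1214 lower, and 0 passed after adjustment. The 3 without the block were Tfdp1, the E2F partner DP1 (0.62 ± 0.20, SE), Mtbp, which acts in origin firing (0.55 ± 0.23, SE), and Pold4, a small subunit of polymerase δ (0.43 ± 0.16, SE). Pold4 was picked out once its value was known.

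By group, the licensing factors had a median of 0.16 over 4 genes and the firing and fork factors 0.08 over 13. Neither held its sign: with 1 array left out the first ran from -0.03 (GPR15+ replicate 5) to 0.43 (GPR15+ replicate 1) and the second from -0.03 (GPR15+ replicate 6) to 0.12 (GPR15+ replicate 1). The further polymerase, clamp loader and RPA subunits had a median of -0.04 over 12, with 6 above 0. Pole2, the second subunit of polymerase ε, differed by 0.65 ± 0.33 (SE) and Rpa3 by 0.51 ± 0.24 (SE). Other subunits of the same polymerases did not share this. Pold2 and Pold3 differed by -0.21 ± 0.22 (SE) and -0.29 ± 0.19 (SE), and Pole3 and Pole4 by 0.02 ± 0.16 (SE) and -0.16 ± 0.49 (SE). Maturation and chromatin assembly genes had a median of 0.01 over 12 and nucleotide synthesis genes 0.09 over 20. Gmps, which makes GMP, had a value of -1.12 ± 0.58 (SE), with -2.81 within number 1, 0.10 within number 5 and -0.66 within number 6. As for Rrm1, the low value sits in number 1. In the group of G1 to S control, 21 of 26 genes lay above 0, against 40.8% of all genes, with a median of 0.12. The count was 17 with quantile normalization, with array weights or without GPR15+ replicate 5, where the median was 0.03, and 16 without both arrays numbered 5, where it was 0.04. Without GPR15+ replicate 1 the median was 0.23, without GPR15+ replicate 6 it was 0.20, and without both arrays numbered 1 it was 0.32. The 21 include genes that promote entry into S phase and genes that restrain it. Among the first, Cdk6 differed by 0.38 ± 0.17 (SE), Cdc25a by 0.40 ± 0.24 (SE) and Ccne2 by 0.31 ± 0.29 (SE). Cdk2 differed by 0.19 ± 0.20 (SE) and Cdk4 by 0.11 ± 0.34 (SE). Skp2, which also promotes entry, lay below 0, at -0.30 ± 0.20 (SE). Among those that restrain it, the retinoblastoma gene Rb1 had a value of 0.59 ± 0.33 (SE). Cdkn1b, the inhibitor p27, picked out once its value was known, had 0.45 ± 0.32 (SE). Most of that came from number 1, with 1.11, 0.21 and 0.03 within the numbers. Of their relatives in the list, Rbl1 differed by 0.39 ± 0.32 (SE), Rbl2 by 0.0005 ± 0.16 (SE), Cdkn2c by 0.05 ± 0.33 (SE) and Cdkn1a by -0.12 ± 0.66 (SE). E2f1, a factor that drives this programme, differed by -0.27 ± 0.21 (SE) and was dim, at the 24.2 percentile. Of the other E2F genes listed, E2f2, E2f3 and E2f4 differed by 0.13, 0.09 and 0.06, and E2f7 and E2f8 by -0.33 and -0.15. Cyclin E1 (Ccne1) differed by 0.06 ± 0.20 (SE).

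Of 21 measured mitosis and spindle genes 7 lay above 0 and 14 below, against 40.8% of all genes above 0, with a median of -0.14 overall and of -0.24, -0.13 and -0.09 within the numbers. The median was -0.07 with arrays centred and -0.11 with the trend removed, against 0.01 and -0.03 for all genes. Without GPR15- replicate 1 it was -0.04, against -0.05 for all genes. Without GPR15+ replicate 6 it was -0.07 against -0.06, and with array weights -0.06 against -0.08. Without both arrays numbered 1 it was -0.08 against -0.08. It was -0.25 against -0.05 without both numbered 5, and -0.24 against -0.06 without both numbered 6. In limma's test 3 were lower at an unadjusted p under 0.05, against 3.44% of all genes, and 0 were higher. They were cyclin B2 (Ccnb2), at -1.21 ± 0.29 (SE), survivin (Birc5), at -0.54 ± 0.15 (SE), and the kinase Aurka, at -0.51 ± 0.15 (SE) (a gene picked out once its value was known). None passed after adjustment (smallest limma adjusted p 0.773). The proliferation marker Mki67 differed by -0.05 ± 0.19 (SE), or 0.02 with arrays centred, and Top2a by -0.15 ± 0.19 (SE). Whether the replication and mitosis genes differ from each other was not tested.

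**Figure D5:**
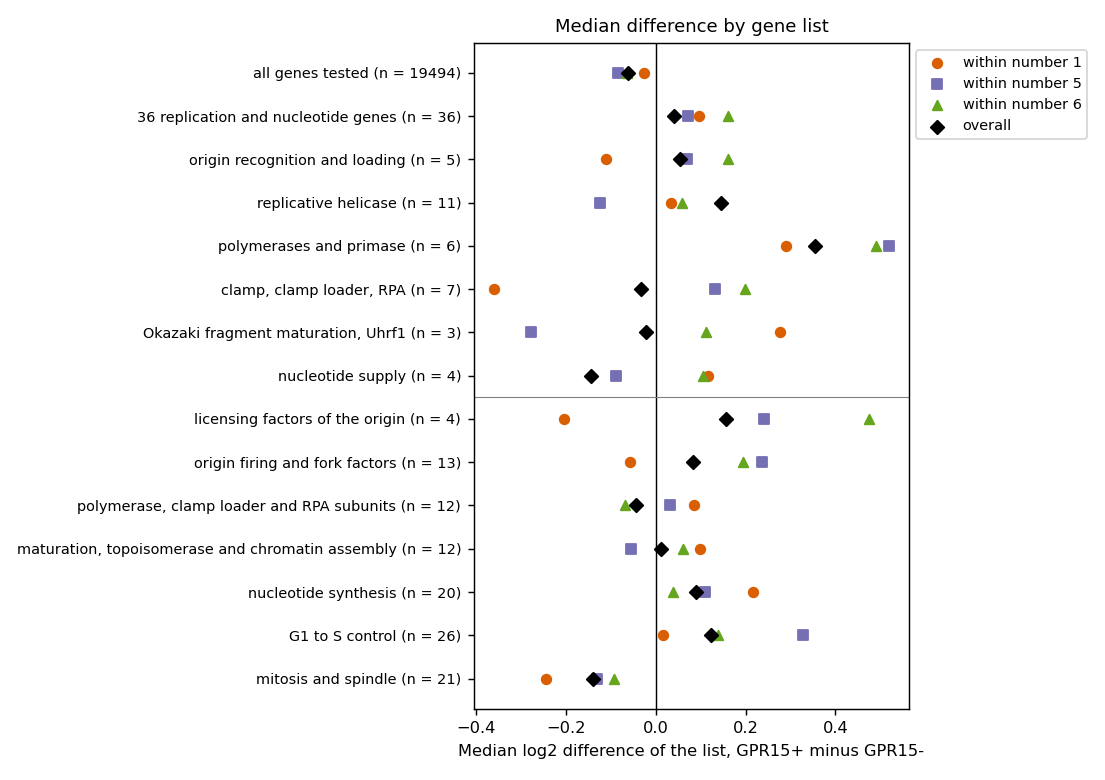
Median log2 difference between samples labelled GPR15+ and GPR15- for all genes, the 36 replication and nucleotide genes, their role groups and further lists, overall (black diamonds) and within the numbers 1, 5 and 6 (coloured symbols). The polymerase and primase group lies farthest right among the role groups (0.35). The medians of the mitosis list lie below 0 in every number, as do those of all genes.

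The replication genes were fairly bright, with a median at the 63.3 percentile of level, and 25 of 36 lay above the median gene. The choice of genes did not use their promoters. The 250 bases before the start site were searched for the E2F-type octamers TTTCCCGC, TTTGGCGC, TTTCGCGC and TTTGCCGC on both strands. RefSeq promoters (GRCm38.p6) were at hand for 28 of the 36 genes. Of these 8 (28.6%) held a match, against 2.16% of all 27025 genes with such a promoter, which include genes not measured here. A match describes letters only and does not show that a factor binds there. Only these exact octamers were counted, so a window without a match may still hold a near variant. The sequences below show the gene of the set with the most matches, a GINS gene with 1, and the gene with the largest difference among those with an entry, which had none. Each runs 5′ to 3′ on the gene's strand and ends at the base before the start site, with matches in capitals.
Mcm6, chr1:128359706-128359955, minus strand: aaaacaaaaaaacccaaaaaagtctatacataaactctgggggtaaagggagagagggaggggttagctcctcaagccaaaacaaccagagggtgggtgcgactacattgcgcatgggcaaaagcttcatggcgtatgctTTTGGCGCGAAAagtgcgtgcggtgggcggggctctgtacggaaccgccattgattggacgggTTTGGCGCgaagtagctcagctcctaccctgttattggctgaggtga
Gins3, chr8:95633309-95633558, plus strand: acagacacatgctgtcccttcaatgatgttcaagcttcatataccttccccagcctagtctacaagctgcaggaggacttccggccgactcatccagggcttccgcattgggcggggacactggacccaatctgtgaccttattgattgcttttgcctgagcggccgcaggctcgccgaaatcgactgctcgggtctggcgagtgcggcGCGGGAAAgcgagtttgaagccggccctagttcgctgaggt
Prim1, chr10:128014965-128015214, plus strand: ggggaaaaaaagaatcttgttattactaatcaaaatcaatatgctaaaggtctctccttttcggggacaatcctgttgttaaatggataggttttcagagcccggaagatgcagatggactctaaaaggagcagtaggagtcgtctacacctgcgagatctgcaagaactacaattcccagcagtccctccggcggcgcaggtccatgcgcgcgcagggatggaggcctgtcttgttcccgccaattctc

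In Mcm6 the first 2 of the 3 matches overlap by 4 bases and read on opposite strands, beginning at -110 and -106 relative to the start site, and the third begins at -47. In Gins3 the match begins at -41. The 8 genes with a match (Orc1, Cdc6, Mcm5, Mcm6, Gins3, Pola1, Rfc3 and Uhrf1) had differences from -0.25 to 0.28 with a median of -0.06. The 20 without one had a median of 0.02. Mcm5 and Mcm6, which held 2 and 3 matches, lay on either side of 0.

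Most markers of other cell types lay below 0, as did 3 of the 4 Treg markers, while 40.8% of all genes lay above 0. The median difference was -0.25 for the Treg, the epithelial and the crypt progenitor markers alike. It was -0.28 for B and plasma cell, -0.16 for macrophage and granulocyte, -0.11 for stromal and -0.07 for CD8 T and NK cell markers. With the level trend removed the medians, in the same order, were -0.21, -0.22, -0.26, -0.20, -0.07, -0.01 and -0.08 (all genes -0.03). With arrays centred they were -0.18, -0.18, -0.18, -0.21, -0.09, -0.04 and -0.01 (all genes 0.01). The mean log2 level ran from 6.54 to 6.64 in GPR15- and from 6.25 to 6.51 in GPR15+ for 11 epithelial genes (9 below 0), and from 7.22 to 7.24 against 7.10 to 7.26 for 7 crypt progenitor genes (5 below 0), a dividing population. In that list Myb had a value of 1.30 ± 0.43 (SE), with 8.55 and 8.87 on the GPR15+ arrays 5 and 6, and 5 of the other 6 lay below 0. Myb and Cd44 are also expressed by T cells. The mean level ran from 5.69 to 5.90 against 5.28 to 5.89 for 7 macrophage and granulocyte genes (7 below 0), and from 6.05 to 6.28 against 5.65 to 5.92 for 6 B and plasma cell genes (4 below 0). CD8 T and NK cell genes (7) ran from 6.37 to 6.64 against 6.16 to 6.42, and stromal genes (8) from 6.55 to 6.68 against 6.42 to 6.65. In bulk samples fewer cells of a type and less RNA per cell cannot be told apart. The part of these cells in the values of Gins1 and the mitotic genes was not tested.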

How the data were processed

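RNA from sorted Tregs (2 to 10 ng) was labelled with biotin for 1-colour Affymetrix arrays, per the labels' protocols. The deposited table holds log2 signals made with RMA, 1 row a probe set, per the submitters' processing notes. The software version was not given in the sources used here. Of 22142 rows, 19527 had 1 gene symbol in the platform annotation, 0 several and 2615 none. The brightest row of each gene was kept, which left 19494 genes, and 36 of 36 genes of the set kept their symbol in the RefSeq table. limma 3.58.1 (R 4.3.3) gave the tests, by lmFit followed by eBayes without a block (Benjamini-Hochberg over all genes, threshold 0.05). This procedure was tested on simulated data only with independent values, which held no shared effect of the number. The genes and lists were chosen with earlier results of these data known. Array values were given for the 3 largest and 3 smallest differences, genes with an unadjusted p under 0.05, and Pcna, Mcm2, Rrm2 and Tyms. Pold1 was added after its values were seen. From each further list up to 2 genes with the largest differences were named, and Mki67, Top2a, E2f1 and Ccne1 always. Outside that rule, Pold2, Pold3, Pold4, Pole3, Pole4, Rbl1, Rbl2, Cdkn1a, Cdkn1b, Cdkn2c, Aurka, Cd44 and Il2ra were named after their values were seen. The same holds for Cdk2, Cdk4, Cdk6, Cdc25a, Ccne2, Skp2, E2f2, E2f3, E2f4, E2f7 and E2f8.

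Samples of the same number deviated together from their fraction's mean, with correlations over all genes of 0.567 (number 1), 0.381 (5) and 0.319 (6). Each exceeds 0.1, so a fit with the number as a block is given beside the main tests, which ignore the number. Unlike numbers 5 and 6 also correlated, at 0.315 (GPR15- 6 with GPR15+ 5) and 0.213 (GPR15- 5 with GPR15+ 6), so the values set number 1 apart more than they separate 5 from 6. An exact permutation test of 3 against 3 arrays cannot go below 0.1 (2-sided). The alternatives were the replicate block, other scalings, the level trend removed, a filter on dim genes, array weights, a trended variance, averaged rows, and arrays or numbers left out. Array weights gene by gene were added after the data were seen.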

Additional observations from a re-analysis of the deposited data

How the results depend on the processing

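Prim2 stayed above 0 and Gins1 below 0 in every setting run, Gins1 in all but the filter on dim genes, which removes it. With the replicate block 5 of the 36 genes had an unadjusted p under 0.05 (12.4% of all genes), and Prim1, Mcm4 and Pole joined Prim2 and Gins1. The block changed no adjusted call. Without the dimmest 40% of genes the count was 1 (6.10% of the genes left), with array weights 10 (33.5% of all genes), with weights gene by gene 8 (22.3%) and without both arrays numbered 1 it was 7 (21.0%). With 1 array left out it ran from 2 to 7 (3.43% to 22.3% of all genes), and 0 genes passed over all genes. Array weights called 2174 genes over all genes and 7 of the 36, and weights gene by gene called 2 over all genes. The median of the set was 0.11 with arrays centred, 0.11 without both arrays numbered 1, -0.012 without both numbered 6, and -0.036 to 0.14 with 1 array left out. The cause of these shifts was not tested.

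Of the 36 genes, 17 kept their sign in all settings that gave a value and 19 turned in at least 1, with no turned value past the test. Turned differences are given by setting. With arrays centred these were Gmnn 0.056, Pcna 0.036, Uhrf1 0.047 and Rrm2 0.042. With quantile normalization these were Gmnn 0.099, Rfc2 -0.069, Rpa2 -0.029 and Rrm2 0.096. With the level trend removed these were Gmnn 0.090, Rfc2 -0.0017, Rpa2 -0.045, Lig1 -0.0010 and Rrm2 0.063. With array weights these were Orc1 -0.031, Gmnn 0.24, Pola2 -0.064, Pcna 0.32, Rpa1 0.052, Rpa2 -0.075, Fen1 0.061 and Rrm1 0.023. With weights gene by gene these were Gmnn 0.16, Pola1 -0.0081, Pola2 -0.022, Pcna 0.29, Rpa1 0.020, Rpa2 -0.096, Fen1 0.10, Lig1 -0.0021 and Rrm1 0.019. Without both arrays numbered 1 these were Gmnn 0.11, Pola1 -0.070, Pola2 -0.077, Pcna 0.32, Rpa1 0.027, Rpa2 -0.26, Fen1 0.28, Lig1 -0.094 and Rrm1 0.26. Without both arrays numbered 5 these were Orc1 -0.042, Rfc2 -0.14, Uhrf1 0.11 and Rrm2 0.084. Without both arrays numbered 6 these were Orc6 -0.24, Mcm2 -0.052, Rfc2 -0.013, Lig1 -0.012 and Uhrf1 0.091. With 1 array left out, the ranges of genes that turned were -0.20 to 0.51 for Orc6, -0.016 to 0.38 for Gins4, -0.15 to 0.28 for Pola2, -0.20 to 0.74 for Pold1, -0.24 to 0.58 for Rfc2, -0.30 to 0.21 for Rpa2, -0.34 to 0.17 for Rrm2, -0.077 to 0.17 for Orc1 and -0.34 to 0.51 for Pcna. They were -0.25 to 0.085 for Rpa1, -0.18 to 0.14 for Gmnn, -0.38 to 0.028 for Mcm5, -0.13 to 0.30 for Pola1, -0.38 to 0.20 for Fen1, -0.13 to 0.21 for Lig1, -0.95 to 0.16 for Rrm1, -0.24 to 0.088 for Uhrf1 and -0.035 to 0.30 for Rfc5. Detection calls were not used here, so how far signal over background limits the dim genes Gins1 and Prim1 is unknown.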
